A study of Mus musculus with 9 samples.

Results

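The genes described here are 8 genes of the ciliary body and of the vitreous matrix, namely Optc, Fbln1, Vcan, Wfdc1, Zic1, Zic2, Otx1 and Msx1. They were found by symbol in a table of 55487 genes measured by RNA-seq in mouse retina, and all 8 were listed there. The 8 genes were chosen on a combination of their known expression in this tissue and their values in these same libraries. Their differences between genotypes are therefore given as a description, with no test. Other genes of the same tissue were tested across all genes, but their lists were also written with earlier results of these data known.

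Whole retinas were taken at P21 from mice of the strain labelled C57 BL/6J. Cre- animals, labelled WT, lacked the Cre transgene and came from Cre- breeders. The sources used here do not give their floxed alleles. tHet animals were heterozygous for floxed alleles of Tet1, Tet2 and Tet3, and Tet tcKO animals were homozygous for all of these alleles. Both tHet and Tet tcKO animals carried a Cre-GFP transgene whose promoter is active in retinal progenitor cells and whose expression is known to be mosaic. These Cre+ animals were in-crossed to keep 2 copies of the transgene, so the transgene, its breeding line and the Tet alleles cannot be told apart in a comparison with Cre-. Each genotype had 3 libraries, and each library pooled retinas of 2 animals.

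The ciliary body forms from the rim of the optic cup, next to the retina. Its double epithelium secretes aqueous humour, anchors the zonule fibres that hold the lens, and supplies much of the matrix of the vitreous, a gel of thin collagen fibrils and hyaluronan. Transcription factors of the OTX, MSX and ZIC families mark this rim during development. TET enzymes oxidise 5-methylcytosine at CpG sites, which is a step of active DNA demethylation.

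Promoter sequences are shown first because CpG dinucleotides are the sites on which TET enzymes act. RefSeq promoter windows on GRCm38.p6, each of 300 bases spanning an annotated start, were at hand for 5 of the 8 genes (Optc, Fbln1, Vcan, Zic1 and Msx1). The windows of Optc (chr1:133907950-133908249, minus strand), Vcan (chr13:89742463-89742762, minus strand) and Zic1 (chr9:91365719-91366018, minus strand) are printed to show the low, the intermediate and the high CpG content found among these genes, with every CpG in capitals:
Optc: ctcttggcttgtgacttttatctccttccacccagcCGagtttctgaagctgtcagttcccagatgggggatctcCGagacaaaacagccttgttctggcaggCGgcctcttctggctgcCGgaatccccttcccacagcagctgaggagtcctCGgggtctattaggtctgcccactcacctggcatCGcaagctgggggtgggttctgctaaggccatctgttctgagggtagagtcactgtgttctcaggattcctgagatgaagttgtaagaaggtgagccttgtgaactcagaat
Vcan: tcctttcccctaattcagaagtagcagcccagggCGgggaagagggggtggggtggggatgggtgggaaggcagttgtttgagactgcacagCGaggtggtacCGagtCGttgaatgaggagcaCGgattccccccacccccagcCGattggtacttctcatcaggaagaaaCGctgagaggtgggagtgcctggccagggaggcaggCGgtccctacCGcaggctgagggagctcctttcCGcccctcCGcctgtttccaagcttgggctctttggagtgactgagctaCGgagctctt
Zic1: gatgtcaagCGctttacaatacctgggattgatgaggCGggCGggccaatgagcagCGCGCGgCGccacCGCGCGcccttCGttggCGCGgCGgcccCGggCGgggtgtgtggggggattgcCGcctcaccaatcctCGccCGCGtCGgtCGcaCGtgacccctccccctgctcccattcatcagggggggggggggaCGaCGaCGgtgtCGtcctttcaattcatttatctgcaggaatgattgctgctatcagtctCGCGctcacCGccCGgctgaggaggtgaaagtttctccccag

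The Optc window held 6 CpG dinucleotides, and 56.4% of the 32851 promoter windows of the table held at least as many. The Vcan window held 12, a number reached by 39.6% of windows. Fbln1 had annotated starts with 12 and 24 CpG dinucleotides. The windows of the transcription factor genes were at the CpG-rich end, with 31 in Zic1 and 29 in Msx1, numbers reached by 10.6% and 12.9% of windows. The CpG content of the promoter window thus differed widely among these 5 genes. No methylation was examined here, and a relation of CpG content to the levels of the genes was not tested. On both strands, the letters TAATCC (bound by OTX and CRX homeodomains) and CTTTGA (bound by TCF and LEF factors) were found in none of these windows, against 7.06% and 16.0% of all windows. TAATTG (bound by MSX and other homeodomains) was found once, in the window of an Fbln1 start, against 8.0% of all windows.

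**Figure D1:**
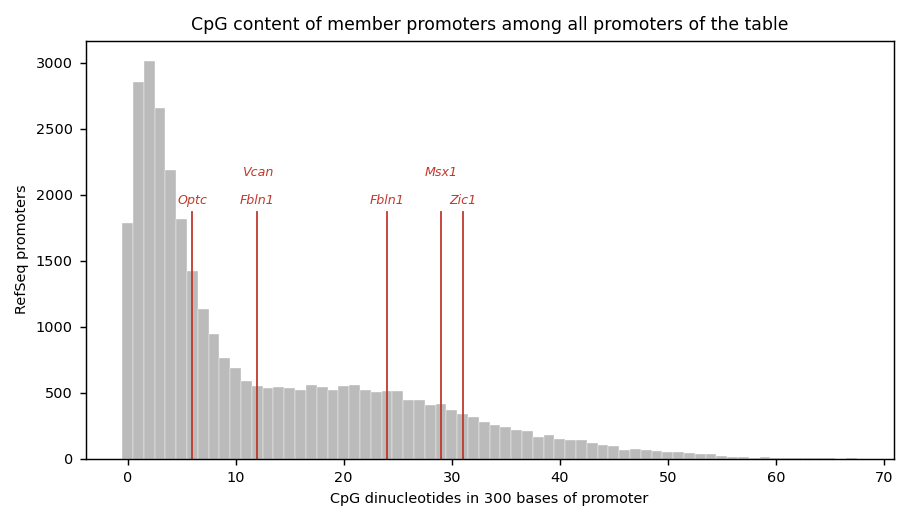
Number of RefSeq promoter windows (y axis) against the number of CpG dinucleotides in 300 bases (x axis), with red lines at the windows of the 5 genes that had one. Optc lies at 6, Vcan and an Fbln1 start at 12, the other Fbln1 start at 24, Msx1 at 29 and Zic1 at 31.

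Reads counted on genes numbered 9627927 to 21108256 per library, so a single read was worth 0.0474 to 0.104 CPM (counts scaled to the same total in every library) and the floor of 3 reads 0.142 to 0.312 CPM. These floors cover counting error only. The library labelled Tet tcKO replicate 3 stood apart, with 28.7% of its reads on the ribosomal RNA gene CT010467.1, against 3.72% in tHet replicate 3 and at most 0.226% in the other libraries. Its CPM of all other genes were lower in proportion, and values computed without this gene are given where they change a statement. Leaving the gene out shifted the median log2 difference of all genes by 0.15 in Tet tcKO versus Cre- and by 0.13 in Tet tcKO versus tHet. Counts over the whole genes of Tet1 and Tet2 passed no test between genotypes (adjusted p from 0.51 to 1.00, limma), and Tet3 was at 235 ± 29.2 CPM in Cre- libraries, 237 ± 71.5 in tHet and 119.7 ± 28.2 in the Tet tcKO libraries (SD, n = 3, adjusted p = 0.017 for Tet tcKO versus Cre-). These whole-gene counts include exons outside the floxed parts and so do not check the deletion. Neural retina markers were present in all libraries. Gnat1, the transducin subunit of rods, fell in Tet tcKO, to 820 ± 657 CPM against 6269 ± 913 in Cre- and 5109 ± 451 in tHet (the call against tHet was lost without Tet tcKO replicate 3, log2 differences of -3.63 to -2.34 over the alternatives).

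Optc (opticin, ENSMUSG00000010311.15, chr1:133897199-133907999, minus strand of GRCm38), which encodes a small leucine-rich glycoprotein that ciliary epithelium secretes into the vitreous, differed the most from Cre- of the 8 genes in both Cre+ genotypes. Its level was 7.42, 1.21 and 5.74 CPM in Cre- replicates 1 to 3, 67.1, 42.1 and 98.9 CPM in tHet, and 32.9, 84.9 and 34.5 CPM in Tet tcKO. Every Cre+ library was thus above every Cre- library, and the tHet and Tet tcKO libraries overlapped. The means were 4.79 ± 3.21 CPM in Cre- libraries, 69.3 ± 28.5 in tHet and 50.8 ± 29.6 in the Tet tcKO libraries (SD, n = 3), which is 14.5-fold higher in tHet and 10.6-fold higher in Tet tcKO than in Cre-. On the log2(CPM + 0.5) scale the difference from Cre- was 3.91 ± 0.45 in tHet and 3.40 ± 0.45 in Tet tcKO (SE). Without Cre- replicate 2, the lowest library at 19 reads, these differences were 3.23 and 2.72.

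The analysed tissue is bulk retina, so more cells of a type and more RNA per cell cannot be told apart, and how much of the retinal rim each dissection kept is not given in the sources used here. This holds for each of the 8 genes.

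Fbln1 (fibulin-1, ENSMUSG00000006369.14, chr15:85205949-85286535, plus strand), which encodes a secreted glycoprotein of basement membranes and elastic fibres that binds versican, had the next largest difference. It was at 1.47, 0.891 and 1.22 CPM in Cre-, 11.0, 7.58 and 16.6 CPM in tHet, and 6.29, 18.1 and 5.36 CPM in Tet tcKO. The lowest Cre+ library, Tet tcKO replicate 3, was above the highest Cre- library, and the Cre+ genotypes overlapped. The log2 difference from Cre- was 2.80 ± 0.39 in tHet and 2.43 ± 0.39 in Tet tcKO.

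Vcan (versican, ENSMUSG00000021614.16, chr13:89655312-89742509, minus strand) encodes the large chondroitin sulfate proteoglycan that binds hyaluronan in the vitreous. Its level was 8.01, 9.29 and 10.1 CPM in Cre-, 30.7, 26.9 and 49.8 CPM in tHet, and 36.8, 54.4 and 27.7 CPM in Tet tcKO. Cre- libraries were close to each other, and every Cre+ library was above them. The log2 difference from Cre- was 1.87 ± 0.27 in tHet and 2.01 ± 0.27 in Tet tcKO, and Tet tcKO minus tHet was 0.14 ± 0.27.

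Wfdc1 (ENSMUSG00000023336.6, chr8:119666365-119688222, plus strand), a gene for a small secreted protein with the fold of whey acidic protein protease inhibitors, was also higher in every Cre+ library than in Cre-. It was at 1.24, 1.08 and 1.69 CPM in Cre-, 4.32, 3.32 and 3.55 CPM in tHet, and 5.40, 5.67 and 3.37 CPM in Tet tcKO. The log2 difference from Cre- was 1.21 ± 0.32 in tHet and 1.52 ± 0.32 in Tet tcKO. The Cre+ genotypes overlapped at Tet tcKO replicate 3. When CT010467.1 was left out of the totals that library was at 4.73 CPM, above the highest tHet library at 4.33 CPM.

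Zic1 (ENSMUSG00000032368.14, chr9:91358058-91365810, minus strand), a zinc finger transcription factor, had the highest level per kilobase among the regulators. Its level was 5.89, 4.96 and 6.14 CPM in Cre-, 13.8, 16.3 and 28.7 CPM in tHet, and 25.9, 31.8 and 25.7 CPM in Tet tcKO. The Cre- libraries lay below all others, and tHet replicate 3 lay among the Tet tcKO libraries. The log2 difference from Cre- was 1.64 ± 0.27 in tHet and 2.20 ± 0.27 in Tet tcKO, and Tet tcKO minus tHet was 0.56 ± 0.27. Exons of Zic1 overlap those of Zic4 on the opposite strand, and the strand setting of the counting is not given in the sources used here, so reads of both genes may be shared.

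Zic2 (ENSMUSG00000061524.8, chr14:122475435-122479852, plus strand), a related zinc finger factor that also helps route retinal axons at the optic chiasm, had another order of genotypes. It was at 2.53, 1.72 and 2.30 CPM in Cre-, 3.38, 2.91 and 5.07 CPM in tHet, and 13.0, 10.3 and 6.98 CPM in Tet tcKO. The 3 genotypes did not overlap in CPM, but with TMM scaling (a scaling by trimmed means of the genes) Cre- and tHet did, at 2.81 in Cre- replicate 1 and 2.53 in tHet replicate 2. The log2 difference from Cre- was 0.66 ± 0.33 in tHet and 1.95 ± 0.33 in Tet tcKO, and Tet tcKO minus tHet was 1.30 ± 0.33.

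Otx1 (ENSMUSG00000005917.15, chr11:21994764-22002897, minus strand), a homeodomain factor needed for the ciliary body to form in mice, was close to the floor in Cre- at 3, 4 and 5 reads per library. Its level was 0.177, 0.254 and 0.338 CPM in Cre-, 1.22, 1.25 and 1.18 CPM in tHet, and 0.950, 1.71 and 0.482 CPM in Tet tcKO. tHet libraries were nearly equal, and the Tet tcKO libraries spread to both sides of them. The log2 difference from Cre- was 1.19 ± 0.33 in tHet and 0.96 ± 0.33 in Tet tcKO. At these levels it depended on the value added before the logarithm, from 0.82 with 1 CPM added to 1.91 with 0.1 CPM added in tHet.

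Msx1 (ENSMUSG00000048450.10, chr5:37820485-37824583, minus strand), a homeodomain factor of the ciliary margin, was at or under the floor in Cre- and did not pass the filter on low values, so no fold is given. It had 0, 1 and 3 reads in Cre- (0, 0.0636 and 0.203 CPM), 1, 1 and 7 reads in tHet (0.0720, 0.104 and 0.332 CPM), and 8, 9 and 9 reads in Tet tcKO (0.475, 0.593 and 0.542 CPM). Every Tet tcKO library was above every library of the other genotypes, whereas Cre- and tHet overlapped.

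**Figure D2:**
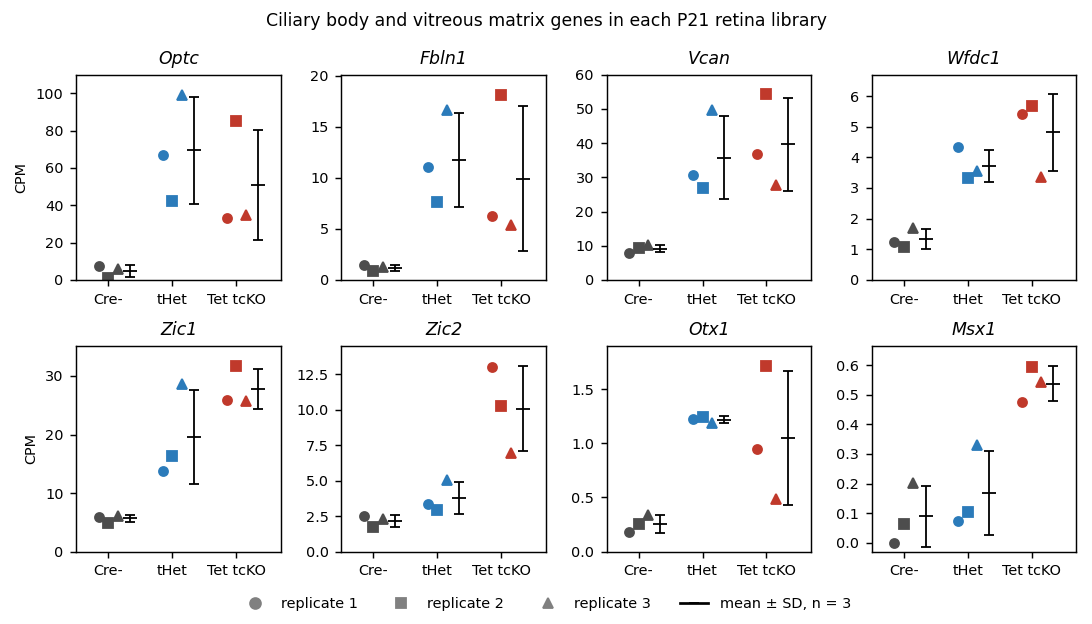
Level in CPM (y axes, each with its own range) of the 8 genes in each library (symbols by replicate) of Cre-, tHet and Tet tcKO retinas, with the mean and SD of 3 libraries in black. Cre- libraries are the lowest for all genes except Msx1, and Zic2 and Msx1 are highest in the Tet tcKO libraries.

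In tHet versus Cre-, 7 of the 8 genes did not overlap between the genotypes and were higher in tHet, all except Msx1 (6 with TMM scaling, under which Zic2 also overlapped). Among all 21330 genes tested, 5.78% were higher in tHet without overlap. The thresholds used for calls (an absolute log2 difference that reaches 1 with an adjusted p below 0.01) were met by 3 of the 8, Optc, Fbln1 and Vcan, and by 0.0422% of tested genes in this direction. Of the tested genes 0% were called lower, with 206 lower at an unadjusted p under 0.05, 0 called by edgeR and 4 by DESeq2. Since the choice of the 8 genes used these values, nothing is read from the difference between the shares. The calls of these 3 genes held in 14, 13 and 12 of 20 settings of the analysis. Among omissions of a library, they were lost without Tet tcKO replicate 3, for Fbln1 and Vcan also without Cre- replicate 3, and for Vcan without Tet tcKO replicate 1. With upper-quartile or TMM scaling, with edgeR or with CT010467.1 left out, 1 gene was called in all. At most 1 of the 3 calls can thus have held in each of those settings. Zic1 met the thresholds in 3 of the settings and Wfdc1 in 1.

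In Tet tcKO versus Cre-, all 8 genes were higher in Tet tcKO without overlap, a pattern seen in 10.0% of tested genes. The call thresholds were met by 6 genes (Optc, Fbln1, Vcan, Wfdc1, Zic1 and Zic2), where 2.03% of tested genes were called higher and 1.57% lower. Of these 6, all but Wfdc1 met them in 20 of 20 settings. Wfdc1 met them in 14 and lost them without any single Cre- library and without Tet tcKO replicates 1 or 2. Log2 differences of the 7 genes that passed the filter ranged from 0.96 (Otx1) to 3.40 (Optc).

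Between the Cre+ genotypes, 2 of the 8 genes, Zic2 and Msx1, were higher in Tet tcKO without overlap, beside 7.35% of tested genes. By limma no member met the call thresholds as used throughout, but Zic2 met them in 4 of 20 settings, among them DESeq2, CT010467.1 left out and tHet replicate 3 left out (log2 differences of 1.39, 1.43 and 1.50). Of tested genes 1.39% were called higher and 1.61% lower. The log2 difference was between -0.51 (Optc) and 1.30 (Zic2), and 4 of the 7 genes that passed the filter were above 0. Optc, Fbln1 and Otx1 were below 0, and their SE of 0.45, 0.39 and 0.33 exceeded or came close to the size of the difference. Wfdc1 also ceased to overlap when CT010467.1 was left out. Both comparisons with Cre- share the Cre- libraries, so their similar values are not independent of each other.

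**Figure D3:**
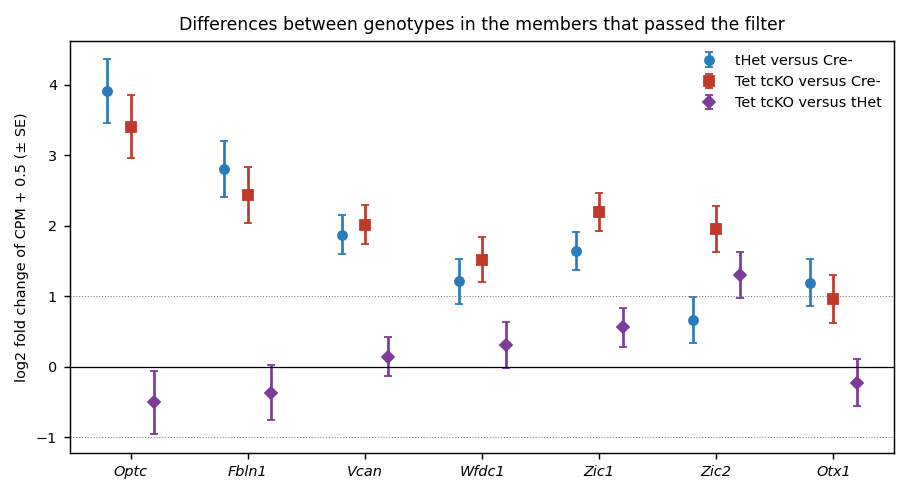
Log2 difference in CPM + 0.5 between genotypes (y axis, points with SE from the fit over 9 libraries) for the 7 genes that passed the filter (x axis). Blue and red points compare tHet and Tet tcKO with Cre- and lie above 0 for every gene, and purple points compare Tet tcKO with tHet and lie within 1 of 0 for all but Zic2. Dotted lines mark a difference of 1 in either direction.

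Levels were compared between genes per kilobase of exon. Optc was the most abundant in each genotype, at 1.86 ± 1.25 CPM per kb in Cre- libraries, 26.9 ± 11.1 in tHet and 19.7 ± 11.5 in the Tet tcKO libraries. Zic1, from which Optc in Cre- differed by less than the spread of its libraries, came next in each genotype, at 0.995 ± 0.109, 3.44 ± 1.40 and 4.88 ± 0.60 CPM per kb. In Cre-, neighbours in the order from Zic1 through Wfdc1 (0.868) and Zic2 (0.757) to Vcan (0.630) were within about the spread of their libraries, as were Zic1, Fbln1 (2.69), Vcan (2.47) and Wfdc1 (2.43) in tHet. In Tet tcKO, Zic2, Wfdc1 (3.13), Vcan (2.74) and Fbln1 (2.27) were likewise within the spread of their neighbours. Zic2 followed Zic1 in Tet tcKO, at 3.50 ± 1.05, but was below Wfdc1 in tHet, at 1.32 ± 0.39 CPM per kb. Otx1 and Msx1 were the lowest in every genotype, at 0.225 CPM per kb or less.

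Within a genotype the 8 genes were often highest or lowest in the same library. The share of all genes with the same order of libraries is not given, so nothing particular to the 8 genes is read from it. tHet replicate 3 was the highest tHet library for 6 of the 8 genes, and Tet tcKO replicate 2 the highest Tet tcKO library for 7, or for 5 when CT010467.1 was left out and 4 with TMM scaling. Cre- replicate 2 was the lowest Cre- library for 5 of the 8. The spread was not the same for every gene. The highest library was 6.14-fold above the lowest for Optc in Cre- but 1.24-fold for Zic1, and in Tet tcKO it was 3.56-fold for Otx1 and 3.38-fold for Fbln1 against 1.24-fold for Zic1.

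Other genes of the ciliary body and the vitreous were taken from 6 lists, 78 genes in all, of which 71 passed the filter and were tested in the fit across all genes (limma, adjusted over 21330 genes). In tHet versus Cre-, 4 rose and 0 fell (2 were lower at an unadjusted p under 0.05, and 0 were called lower by edgeR or DESeq2), and their median log2 difference was 0.36, against 0.057 for all tested genes. In Tet tcKO versus Cre-, 12 rose and 2 fell, with a median of 0.42 against 0.0012. In Tet tcKO versus tHet, 3 rose and 6 fell, with a median of 0.072 against -0.056. The shares called higher were 5.63%, 16.9% and 4.23% in this order of comparisons, beside 0.0422%, 2.03% and 1.39% of all tested genes. The shares called lower were 0%, 2.82% and 8.45%, beside 0%, 1.57% and 1.61%. At an unadjusted p under 0.05 (limma), 764, 1833 and 1472 of all 21330 tested genes were higher in the 3 comparisons. At the same threshold 206, 1594 and 2260 were lower. The lists were written with earlier results of these data known, so nothing is read from the difference between the shares. The 4 calls in tHet were not found by edgeR (0 calls), with CT010467.1 left out (0) or without tHet replicate 2 (0), Tet tcKO replicate 1 (0) or Tet tcKO replicate 3 (0), and were 2 without Cre- replicate 2 or Cre- replicate 3. The 14 calls of Tet tcKO versus Cre- were 7 without Tet tcKO replicate 3. The 9 calls of Tet tcKO versus tHet were 5 without Cre- replicate 3, 3 without tHet replicate 1 or tHet replicate 2, 1 without Tet tcKO replicate 1 and 0 without Tet tcKO replicate 3.

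The list of vitreous collagen fibrils and hyaluronan held the most calls. Of its 12 tested genes, 7 rose in Tet tcKO versus Cre-, all collagens except Has2, which encodes a hyaluronan synthase, and none was called lower (1 at an unadjusted p under 0.05, 0 by edgeR or DESeq2). Col9a1, a chain of the type IX collagen on the fibril surface, was at 40.5 ± 11.0 CPM in Cre- libraries, 111 ± 17.1 in tHet and 212 ± 5.22 in the Tet tcKO libraries, and rose by 1.46 ± 0.22 on the log2 scale in tHet (adjusted p = 0.0051) and by 2.41 ± 0.22 in Tet tcKO (adjusted p = 5.25e-07). The other chains of this collagen also rose in Tet tcKO, with Col9a2 at 5.95 ± 1.23 against 29.0 ± 1.5 CPM (adjusted p = 8.53e-06) and Col9a3 at 5.44 ± 1.78 against 15.4 ± 1.96 CPM (adjusted p = 0.0019). Col2a1, the main fibril collagen of the vitreous, rose from 26.5 ± 3.48 to 90.0 ± 8.32 CPM (adjusted p = 2.36e-05), and Col11a1, which sits in the fibril core, from 8.21 ± 2.6 to 45.1 ± 17.9 CPM (adjusted p = 1.46e-05). Between Tet tcKO and tHet, Col5a2, Has2 and Col9a2 rose, by 1.83, 1.56 and 1.14 on the log2 scale (adjusted p = 0.0036, 0.0076 and 0.0070). These calls held in 16, 9 and 13 of 20 settings. With CT010467.1 left out, 5 genes of the list were called higher against tHet and 8 against Cre-. Has2 was close to the floor outside Tet tcKO, at 0.293 ± 0.302 CPM in Cre- libraries, 0.316 ± 0.163 in tHet and 1.94 ± 0.69 in Tet tcKO. Its log2 difference from tHet was 1.14 to 2.67 over the alternatives. Col18a1, a basement membrane collagen, rose in tHet from 24.8 ± 4.09 to 76.6 ± 22.8 CPM (adjusted p = 0.0087), a call that held in 6 of 20 settings.

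Among 14 tested regulators and signals of the ciliary margin, 4 rose in Tet tcKO versus Cre- (Zic5, Ccnd2, Gja1 and Zic4). Gja1, which encodes the gap junction protein connexin 43 that couples both layers of the ciliary epithelium, was at 8.73 ± 4.38 CPM in Cre- libraries, 44.9 ± 15.5 in tHet and 28.1 ± 10.1 in the Tet tcKO libraries, and also rose in tHet (log2 difference 2.39 ± 0.36, adjusted p = 0.0051). Zic5 was at 1.60 ± 0.23, 3.32 ± 0.41 and 8.16 ± 2.47 CPM in the 3 genotypes (adjusted p = 0.00033 for Tet tcKO versus Cre-). Zic4 was at 0.480 ± 0.097, 2.46 ± 0.53 and 2.81 ± 1.18 CPM (adjusted p = 0.0035). This call held in 16 of 20 settings. Zic4 was at most 0.589 CPM in Cre- libraries, and its exons overlap those of Zic1, so its reads may be shared. Ccnd2, a G1 cyclin of dividing cells, was at 3.59 ± 0.72, 9.88 ± 3.88 and 15.9 ± 6.41 CPM (adjusted p = 0.00066). No gene of the list was called in Tet tcKO versus tHet by limma or edgeR (2 at an unadjusted p under 0.05, 1 by DESeq2). With CT010467.1 left out, limma called 1 of them higher.

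Of 13 tested genes of the ciliary zonule and elastic fibres, Fbn2 (fibrillin-2) rose in both comparisons with Cre-, from 5.01 ± 0.58 CPM to 20.6 ± 6.36 in tHet (adjusted p = 0.0051) and 23.3 ± 6.28 in Tet tcKO (adjusted p = 6.72e-05). Adamtsl4 fell in Tet tcKO versus tHet, with 11.9 ± 2.13 CPM in tHet and 4.29 ± 1.54 in Tet tcKO (adjusted p = 0.0056). Of 13 tested genes of aqueous humour transport, none rose in any comparison by limma, edgeR or DESeq2 (3, 1 and 0 at an unadjusted p under 0.05). Aqp1, a water channel, was at 48.3 ± 3.36 CPM in Cre- libraries, 33.4 ± 12.1 in tHet and 6.17 ± 5.81 in the Tet tcKO libraries. It fell in both comparisons of Tet tcKO (adjusted p = 0.00015 and 0.0012). The calls of Aqp1 held in 19 and 13 of 20 settings, and both were lost without Tet tcKO replicate 3. Car14, Ptgds and Car12 fell in Tet tcKO versus tHet, by log2 differences of -1.75, -1.68 and -1.52 (adjusted p = 0.0028, 0.0066 and 0.0099). Car14 is also on the list of Müller glia markers, where Rlbp1, Glul and Abca8a fell in the same comparison, by -1.47, -1.18 and -1.34 (calls that held in 19, 13 and 13 of 20 settings and were all lost without Tet tcKO replicate 3). These 4 calls of the transport list against tHet were 0 with edgeR, 2 with DESeq2 and 0 when CT010467.1 was left out of the totals.

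Of the small leucine-rich proteoglycans, the family of opticin, 8 of 12 were tested and none rose by limma or edgeR in the comparisons with Cre- (4 in each at an unadjusted p under 0.05, with 1 and 0 called by DESeq2). Fmod, which had the largest difference of these genes in tHet, was at 2.64 ± 0.28 CPM in Cre- libraries, 10.2 ± 4.56 in tHet and 4.98 ± 1.79 in the Tet tcKO libraries (adjusted p = 0.060 and 0.25). Nyx, which encodes nyctalopin of the bipolar cell synapse, fell from 30.2 ± 1.93 CPM in Cre- to 8.33 ± 6.27 in Tet tcKO (adjusted p = 0.0026), a call lost without Tet tcKO replicate 3, with edgeR or DESeq2 and with CT010467.1 left out. It was also called lower against tHet (log2 difference -1.86, adjusted p = 0.0097, limma), which was lost without Cre- replicate 3, tHet replicate 1 or 2, or Tet tcKO replicate 1 or 3 (-2.42 to -1.09 over the alternatives). Among 11 tested lecticans, link proteins and versican-cleaving proteases, the family and partners of Vcan, none was called by limma or edgeR, with 2 called higher by DESeq2 in Tet tcKO versus Cre- and 1 in Tet tcKO versus tHet (limma gave 1, 5 and 3 of them an unadjusted p under 0.05 across the comparisons of tHet with Cre-, of Tet tcKO with Cre- and of Tet tcKO with tHet). With CT010467.1 left out, limma called 1 of these 11 genes higher in Tet tcKO versus Cre-. The lecticans Bcan and Acan were at 3.49 ± 0.61 and 0.585 ± 0.364 CPM in Cre- and at 7.59 ± 2.40 and 0.101 ± 0.066 CPM in Tet tcKO. The proteases Adamts9 and Adamts4 were at 3.38 ± 0.46 and 1.19 ± 0.72 CPM in Cre- and 8.20 ± 3.41 and 2.62 ± 1.21 CPM in Tet tcKO.

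**Figure D4:**
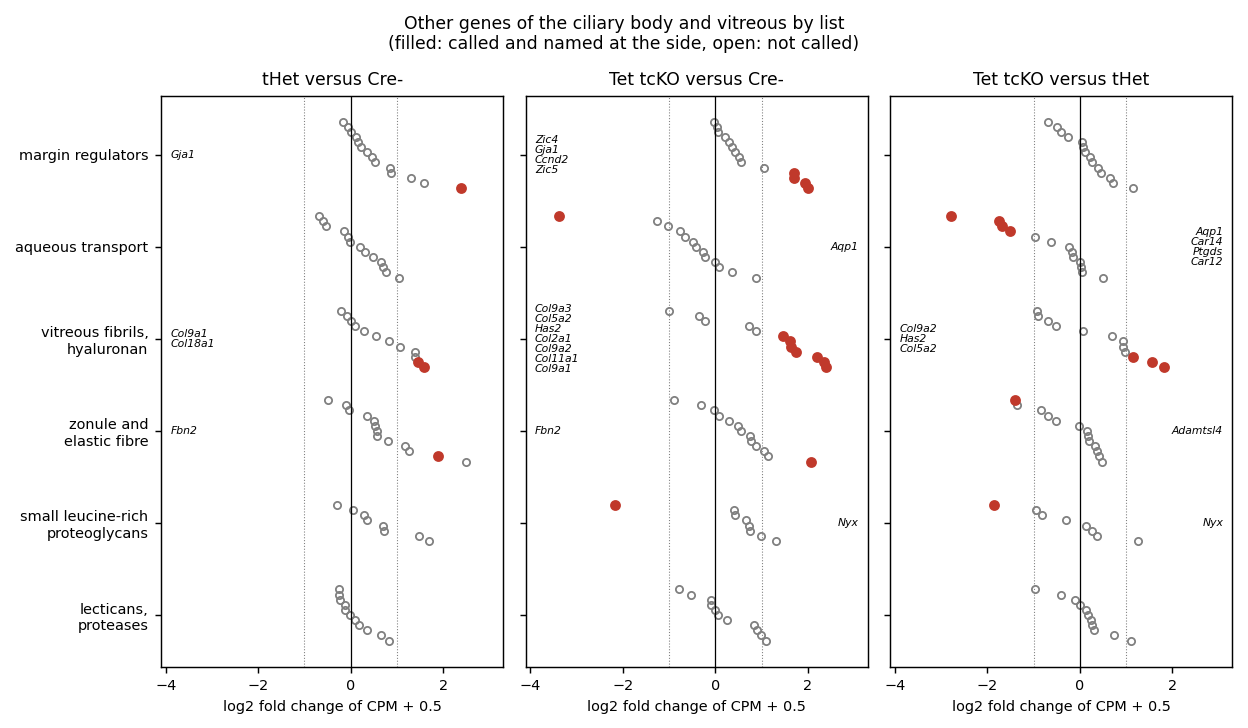
Log2 difference in CPM + 0.5 (x axes) of the 71 tested genes of 6 ciliary body and vitreous lists (rows) in the 3 comparisons (panels), with called genes filled and named at the side. The vitreous fibril list has 7 called genes in Tet tcKO versus Cre-, and the transport list has 4 called genes below 0 in Tet tcKO versus tHet.

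Markers of tissues that adjoin the ciliary body or can adhere to a dissected retina were summed for each library and set beside the 8 genes, whose summed level was 19.5 to 27.7 CPM in Cre- libraries, 100.4 to 204 in tHet and 105 to 207 in the Tet tcKO libraries. The 12 pigment cell and pigment epithelium markers summed to 61.6 to 240 CPM in Cre- libraries, 205 to 293 in tHet and 50.8 to 71.1 in the Tet tcKO libraries. With CT010467.1 left out the Tet tcKO sums were 66.6 to 71.3 CPM, and the library with the lowest sum was Cre- replicate 2. In tHet versus Cre- none of the 11 tested was called by limma, edgeR or DESeq2, and 7 were higher at an unadjusted p under 0.05. Against tHet, 6 fell in Tet tcKO (Lrat, Rgr, Ttr, Rpe65, Tyr and Dct), and 3 of these, Rpe65, Rgr and Lrat, also fell against Cre-. The 6 calls were 3 with edgeR, 5 with DESeq2 and 4 with CT010467.1 left out, and the 3 calls were 2, 3 and 1. Against tHet, Tyr and Dct were called in 9 and 7 of 20 settings. Against Cre-, Rpe65, Rgr and Lrat were called in 16, 12 and 11. Rpe65, the visual cycle isomerase of pigment epithelium, was at 17.4 ± 10.4, 19.5 ± 4.10 and 3.89 ± 0.81 CPM in these genotypes (Cre- first, Tet tcKO last). The summed pigment list was thus low in the Tet tcKO libraries, in which the 8 genes were high, and high in the tHet libraries, in which they were also high. Its genes did not all move together. In Tet tcKO versus Cre-, 5 of the 11 tested had a log2 difference above 0, the largest being Tyrp1 (0.95, not called). Against tHet 1 of the 11 did, Best1 (0.56, not called). Cre- replicate 2 had both the lowest pigment sum and the lowest summed level of the 8 genes among all libraries of its genotype.

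The 10 lens markers summed to 15.2 to 75.7 CPM in Cre- libraries, 7.27 to 49.2 in tHet and 5.28 to 24.6 in the Tet tcKO libraries. None was called by limma, edgeR or DESeq2 (3 were lower at an unadjusted p under 0.05 in Tet tcKO versus Cre-). The lens membrane protein gene Lim2 was under the floor in every library. It was at most 0.0675 CPM in Cre- and at 0 in all tHet and Tet tcKO libraries. The crystallins Crybb2 and Cryaa were at 17.5 ± 12.3 and 16.5 ± 12.7 CPM in Cre- and at 4.63 ± 3.86 and 5.63 ± 4.73 CPM in Tet tcKO. The 10 fibroblast markers summed to 30.9 to 36.4 CPM in Cre- libraries, 42.0 to 49.0 in tHet and 47.7 to 107 in the Tet tcKO libraries, and these ranges did not overlap between Cre- and the Cre+ genotypes. With CT010467.1 left out they were 42.1 to 50.9 in tHet and 62.7 to 107 in Tet tcKO, which then did not overlap either. Of the 7 tested, only Col1a2 was called, at 3.32 ± 0.19 CPM in Cre- libraries, 4.72 ± 0.57 in tHet and 22.2 ± 9.98 in the Tet tcKO libraries, whereas its partner chain Col1a1 was at 2.42 ± 1.59, 2.35 ± 1.48 and 1.76 ± 0.32 CPM. Pdgfra was the most abundant gene of the fibroblast list in each genotype and was not called. It was at 20.5 ± 3.63 CPM in Cre- libraries, 26.4 ± 3.68 in tHet and 37.5 ± 19.3 in the Tet tcKO libraries. Col5a2 of the vitreous list is also a collagen of fibroblasts. The part of any of these tissues in the levels of the 8 genes was not tested.

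Further lists differed between genotypes to various extents. The 8 smooth muscle markers summed to 61.1 to 66.4 CPM in Cre- libraries, 73.6 to 93.9 in tHet and 59.7 to 88.0 in the Tet tcKO libraries. The overlap of Tet tcKO with Cre- rested on Tet tcKO replicate 3, and with CT010467.1 left out the Tet tcKO sums were 83.7 to 88.1 CPM, above all of Cre-. Of 6 tested, 1 was called, Myocd, which was at 1.13 ± 0.14, 1.87 ± 0.49 and 25.4 ± 8.37 CPM. The 10 vessel markers summed to 236 to 240, 193 to 261 and 264 to 403 CPM in the same order of genotypes, and the 6 astrocyte markers to 42.7 to 65.7, 65.5 to 214 and 59.2 to 155 CPM. With CT010467.1 left out the Tet tcKO libraries were at 371 to 403 CPM for vessel markers and 76.3 to 155 CPM for astrocyte markers, and neither range overlapped with Cre-. Neither list held a call by limma, edgeR or DESeq2 in any comparison. In Tet tcKO versus Cre- 5 vessel and 3 astrocyte markers were higher at an unadjusted p under 0.05. The log2 difference was above 0 for 7 of 10 vessel and 5 of 6 astrocyte markers there. The most abundant gene of each list was Kdr, at 137 ± 21.6, 114 ± 15.5 and 202 ± 40.2 CPM in the 3 genotypes, and Gfap, at 29.7 ± 9.81, 89.6 ± 78.2 and 64.5 ± 42.6 CPM. Of the 9 Müller glia markers, 2 rose (Crym and Apoe) and 3 fell (Rlbp1, Glul and Abca8a) in Tet tcKO versus Cre-. The 8 skeletal muscle markers summed to 9.94 CPM or less in every library. Of 3 tested, 1 fell in Tet tcKO against Cre-, Pvalb, which retinal neurons also express (log2 difference -2.11, -2.60 to -1.75 over the alternatives). This call was lost without Cre- replicate 3 or Tet tcKO replicate 1 or 3, with edgeR and with CT010467.1 left out. Of the 12 neural retina markers, 0 were called in tHet versus Cre- by limma, edgeR or DESeq2 (0 at an unadjusted p under 0.05). In Tet tcKO versus Cre-, 4 of the 12 markers fell and 1 rose.

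**Figure D5:**
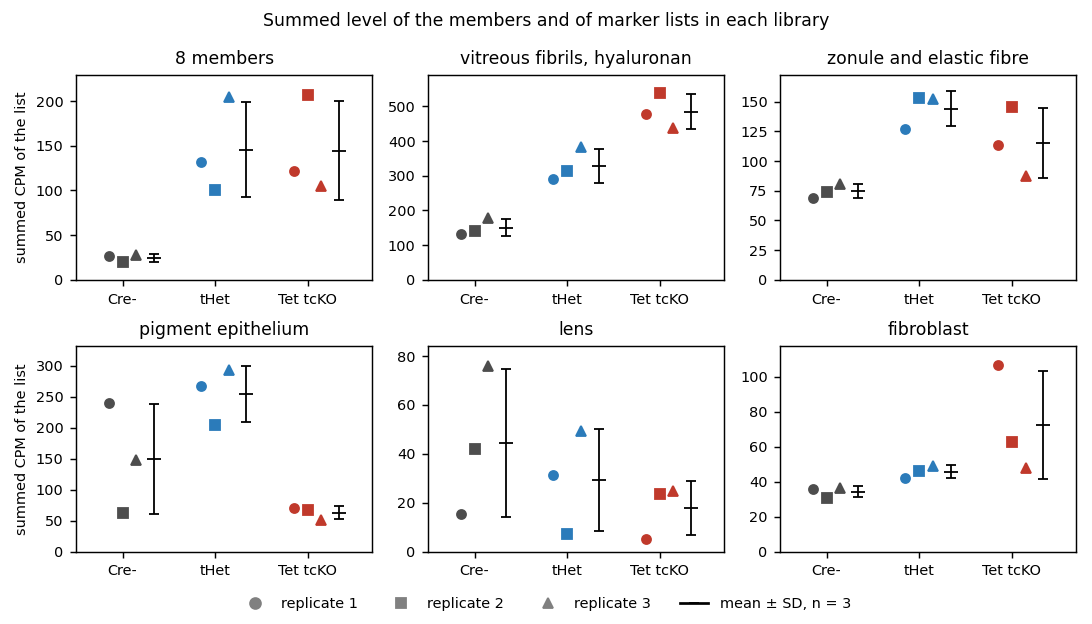
Summed CPM (y axes from 0, each with its own range) of the 8 genes and of 5 marker lists in each library (symbols by replicate), with the mean and SD of 3 libraries in black. The 8 genes and the vitreous list are lowest in Cre-, while the pigment epithelium list is at 50.8 to 71.1 CPM in Tet tcKO, a range that also holds Cre- replicate 2 (61.6 CPM).

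The genes with the most similar pattern were found among 17423 genes with a mean of at least 1 CPM by Pearson's r of log2(CPM + 0.5) over the 9 libraries. These r values are a description, since all points share their libraries and the genotype differences. The mean profile of the 7 tested members was most like Iqgap2 (r = 0.987), Ltbp1 (0.983), Tmprss11e (0.976) and Slc13a4 (0.965), followed by Klhdc7a, Dancr, Fbn2, Col9a3, Gm24143 and Col23a1 (0.961 to 0.956). Optc was most like Tmprss11e (0.989), Col9a3 (0.979) and Gja1 (0.955), and Fbln1 like Tmprss11e (0.982), Klhdc7a (0.978) and Gm24143 (0.977). Tmprss11e, a transmembrane serine protease gene, was at 0.419 ± 0.254 CPM in Cre- libraries, 3.37 ± 0.66 in tHet and 3.04 ± 1.24 in the Tet tcKO libraries.

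For Vcan the nearest genes were Gm24143 (0.978), Ltbp1 (0.976) and Fbn2 (0.970), the latter pair encoding proteins of microfibrils. Wfdc1 was nearest to Ppic (0.981), Dancr (0.963) and Iqgap2 (0.961), and Zic1 to Iqgap2 (0.973), Olfml2a (0.969) and Col9a1 (0.964). The profile of Zic2, with its step between tHet and Tet tcKO, was nearest to Itpkb (0.987), Zic5 (0.987) and Igfbp4 (0.985). Otx1 was nearest to Mecom (0.958), Gm24143 (0.958) and Zfp598 (0.956), and Msx1, with few reads, to Dact1 (0.980), Col16a1 (0.972) and Zfp710 (0.968). Of the genes of the 6 lists of this tissue, Gja1, Col9a3, Fbn2, Col9a1 and Zic5 were among these nearest genes.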

How the data were processed

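RNA-seq of 9 whole-retina libraries (3 per genotype) was analysed. Per the labels and the study's methods, the authors removed ribosomal RNA, prepared stranded libraries, trimmed reads with Trim Galore 0.6.7, aligned them to mm10 with STAR 2.7.0f and counted them on genes with HTSeq 0.11.2. The authors deposited CPM values, divided by plain library totals. The file's 20 columns of fold changes, p-values and other summaries of the authors' own comparisons were not used. Every CPM value above 0 equalled a whole number of reads within 0.01 read (100%), so read numbers were recovered.

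For 21330 genes, those that reached 0.5 CPM in 3 or more of the 9 libraries, log2(CPM + 0.5) was fitted by genotype over all libraries and without a replicate block (lmFit and eBayes with trend, limma 3.58.1, R 4.3.3). P-values were adjusted by Benjamini-Hochberg, and a call needed an absolute log2 difference that reached 1 with an adjusted p below 0.01. Alternatives included edgeR 4.0.16 and DESeq2 1.42.0 on recovered reads, other scalings and leaving out each library. The fits were tested on simulated data. Libraries of a group were compared in pairs and none were duplicates. The labels call the libraries replicates and each came from other animals, so p-values measure the spread between 3 pools.

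The 8 genes and all lists were chosen with earlier results of these data known. The rule for names beside the 8 genes was called list genes (or the 4 largest differences in a list without calls), the genes nearest in profile and Tet1, Tet2 and Tet3. It was not followed in full for tissues other than the ciliary body and vitreous. Only the most abundant gene of each is named for vessels and astrocytes, 2 of these 4 for the lens and not every call of the neural retina list. Fmod, Col1a1, Lim2, Tyrp1, Best1, Pdgfra, Kdr and Gfap were named after their values were seen. The promoter that drives Cre is not reported here. Positions are from GENCODE release 21 for mouse and promoters from RefSeq (GRCm38.p6).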

Additional observations from a re-analysis of the deposited data

How the results depend on the processing

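Over 20 settings, the log2 differences of the 7 fitted genes kept their sign in both comparisons with Cre-, and 3 of 133 alternative values changed sign in Tet tcKO versus tHet. Of all alternative values of these differences, 390 moved by less than the SD between libraries and 9 by more, in Otx1 and Wfdc1. Counts of called genes depended more on the setting. In tHet versus Cre- 9 genes were called, but 1 without a filter on low values, with upper-quartile or TMM scaling, with edgeR or with CT010467.1 left out (an alternative chosen after seeing the data), 40 with DESeq2, and 0 (without Tet tcKO replicate 3) to 17 (without tHet replicate 3) when a library was left out. The 4 ciliary and vitreous list genes called there became 2 with a pseudocount of 0.1, 0 without a filter, with upper-quartile or TMM scaling, with edgeR or without CT010467.1, 11 with DESeq2, and 0 to 5 when a library was left out. In Tet tcKO versus Cre- 768 genes were called, and 417 without a filter (9 of the list genes in place of 14), 1145 with DESeq2, and 331 (without Tet tcKO replicate 1) to 982 (without tHet replicate 3) with a library left out (7 to 15 of the list genes). In Tet tcKO versus tHet 640 were called, and 351 without a filter, 1046 with DESeq2, and 252 (without Tet tcKO replicate 1) to 973 (without tHet replicate 3) with a library left out. The list genes called there were 9, and 0 without a filter, 3 with upper-quartile scaling, 4 with TMM scaling, 3 with edgeR and 0 to 9 with a library left out. Leaving out CT010467.1 changed the balance of calls from 434 higher and 334 lower to 613 and 222 in Tet tcKO versus Cre-, and from 297 and 343 to 427 and 215 in Tet tcKO versus tHet. The cause of these changes was not tested. Depth limits Msx1 and, in Cre-, Otx1.

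When a replicate block was added to the model, 40 genes were called in tHet versus Cre- (9 of the list genes), 1127 in Tet tcKO versus Cre- (16) and 1125 in Tet tcKO versus tHet (9). Libraries of the same number share no animals. Their deviations correlated at -0.35 to 0.56 (mean 0.11, 9 pairs), against a mean of -0.051 for other numbers. The labels do not say whether libraries of the same number were handled together, and these correlations cannot settle it.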
